A study of Mus musculus with 6 samples.

Results

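The insulin-like growth factor (IGF) axis was followed here through the 10 genes Igf1, Igf2, Igf1r, Igf2r, Igfbp2, Igfbp3, Igfbp4, Igfbp5, Igfbp6 and Igfbp7, taken by symbol from the 23420 genes of the count tables. All 10 genes were listed, and 9 of them passed the low-count filter of edgeR, which left 13087 genes for testing. RNA-seq was performed on lacrimal gland epithelium isolated by laser capture at E14.5, when the bud has entered the periocular mesenchyme, in 3 control and 3 Pea3 TKO samples on a mixed background. Controls carried only Le-Cre, a transgene driving Cre recombinase in the conjunctival and lacrimal gland epithelium. Pea3 TKO samples carried the same transgene together with Pea3-/-, Ermfl/fl and Er81fl/fl, so that the Pea3 (Etv4) allele was a null in all tissues while the floxed Erm (Etv5) and Er81 (Etv1) alleles were open to deletion where Le-Cre was active. Whether each sample came from a separate embryo is not stated, and p-values then measure the spread between these samples only.

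IGF ligands bind Igf1r, a receptor tyrosine kinase that signals through Irs adaptors to the PI3K-AKT and MAPK cascades. Igf2r, the cation-independent mannose 6-phosphate receptor, instead takes Igf2 into the cell for degradation. The IGF binding proteins (Igfbps) hold the ligands outside the cell, where they can limit or prolong access to the receptor, and proteases that cut them release the ligand. Igf2 is the main fetal ligand and is expressed from the paternal allele, whereas Igf2r in the mouse is expressed from the maternal allele.

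Sequencing depth ran from 14194775 to 17860140 counts per sample, so that 3 counts corresponded to 0.17 to 0.21 CPM (read counts scaled to a library of 1e6 counts after TMM normalization). The targeted genes were lower in Pea3 TKO, with Etv5 at 1057 ± 127 CPM in control and 139 ± 45.8 CPM in Pea3 TKO (SD, n = 3 each), Etv4 at 151 ± 29.1 and 19.4 ± 8.79 CPM, and Etv1 at 31.8 ± 2.79 and 9.51 ± 0.41 CPM. Reads of all 3 genes, Etv4 included, were thus reduced but present in Pea3 TKO, and which part of each transcript they came from is not known from these tables. Of 8 epithelial markers 7 were called higher in Pea3 TKO, against 13.6% of all tested genes. Cdh1 was at 499 ± 63.1 and 1065 ± 38.0 CPM, while Epcam was not called and lay between 1200 and 1499 CPM in all 6 samples. Pea3 TKO replicates 1 and 2 stood apart from the other samples in their makeup. The summed level of 4 Y-linked genes was 0.44 and 0.21 CPM in these samples, against 136 to 175 CPM in the controls and 139 CPM in Pea3 TKO replicate 3. The summed level of a list of mesenchyme markers was also higher in these samples, as given below, although not every marker on it was. Values of the called members in Pea3 TKO replicate 3 are therefore given separately.

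In Pea3 TKO samples the ligand gene Igf2 and the binding protein genes Igfbp3 and Igfbp5 rose, and Igfbp4 fell. Thus 4 of the 9 tested members passed an adjusted p threshold of 0.05 in the edgeR quasi-likelihood test with Benjamini-Hochberg adjustment, against 25.0% of all tested genes. In the higher direction 3 members were called, against 13.6% of tested genes, and in the lower direction 1 member, against 11.3%. The median log2 fold change of the tested members was 0.32, and that of all tested genes was 0.01. Neither receptor was called, and the abundant Igfbp2 was not called either.

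**Figure D1:**
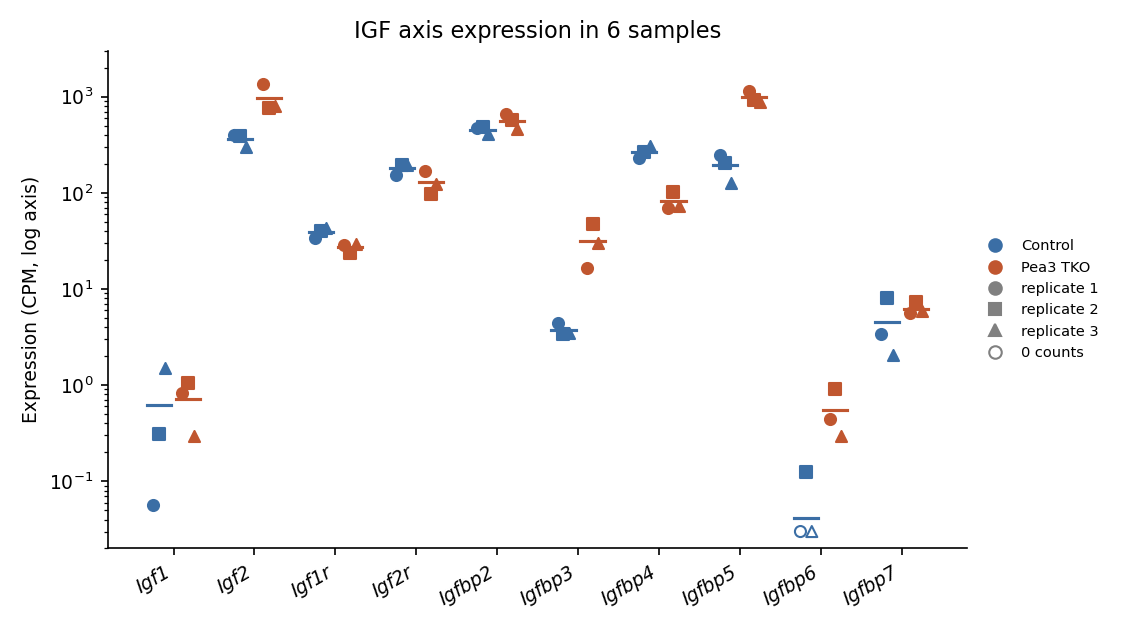
Expression of each of the 10 genes in CPM on a log axis, with 1 point per sample, symbols for the replicates and horizontal lines for the group means. The Pea3 TKO samples lie above all controls for Igf2, Igfbp3 and Igfbp5 and below them for Igfbp4, while open symbols mark samples with 0 counts.

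Igf2 lies on chromosome 7 from 142650766 to 142666816 (GRCm38). It was read at 403, 388 and 301 CPM in control replicates 1 to 3 and at 1348, 756 and 800 CPM in Pea3 TKO replicates 1 to 3. Every Pea3 TKO sample exceeded every control, and Pea3 TKO replicate 1 was well above the other samples. Expression was 2.66-fold higher in Pea3 TKO (log2 1.41, standard error 0.22, adjusted p = 0.0020). An antisense gene, Igf2os, overlaps Igf2 in the annotation and was not analysed here. With a covariate for Y-linked expression the log2 fold change was 1.16 and the call was lost (adjusted p = 0.053). Only Pea3 TKO replicates 1 and 2 had low Y-linked expression. Here and below, the fit with this covariate therefore rests mainly on Pea3 TKO replicate 3 against the controls. What a call lost in it owes to Y-linked expression was not tested. With libraries below 10 CPM for the summed Y-linked genes left out, 1 Pea3 TKO sample remained. It differed from the controls by 1.15 on the log2 scale, a value with no replicate check.

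H19, a noncoding RNA expressed from the maternal allele of the same imprinted domain, lies 72.6 kb from Igf2 and moved in parallel with it. Its levels were 358, 281 and 209 CPM in control and 1142, 489 and 593 CPM in Pea3 TKO. H19 thus rose (log2 1.39, standard error 0.30, adjusted p = 0.0098), and both genes were lowest in control replicate 3 and highest in Pea3 TKO replicate 1. H19 was not called with the Y-linked covariate (log2 1.10, adjusted p = 0.17). The ratio of Igf2 to H19 reads, which is not corrected for length, was 1.13 to 1.44 in control and 1.18 to 1.55 in Pea3 TKO. These ranges overlap. As tissue was measured in bulk, more cells expressing a gene and more RNA per cell cannot be told apart here or below.

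Igf1, the ligand that dominates growth after birth, was close to the detection floor. It had 1, 5 and 23 counts in control and 13, 15 and 5 counts in Pea3 TKO. The groups overlapped fully, with 0.62 ± 0.77 CPM in control and 0.72 ± 0.39 CPM in Pea3 TKO. Its log2 fold change of 0.22 had a 95% interval from -2.21 to 2.65 (adjusted p = 0.91), and its sign turned when single samples were left out.

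Igf1r, on chromosome 7 from 67952827 to 68233668, showed 33.6, 39.6 and 43.2 CPM in control and 28.6, 23.4 and 29.3 CPM in Pea3 TKO. The groups did not overlap, but the difference did not pass the threshold (log2 -0.52, standard error 0.18, adjusted p = 0.058). DESeq2 called it (adjusted p = 0.043), as did the edgeR test without control replicate 1 (adjusted p = 0.042). The 95% interval of the difference ran from -0.91 to -0.12.

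Igf2r, on chromosome 17 from 12682406 to 12769664, had 152, 195 and 193 CPM in control and 168, 98.2 and 124 CPM in Pea3 TKO. Pea3 TKO replicate 1 lay within the control range. Igf2r was not called (log2 -0.47, standard error 0.19, adjusted p = 0.10). Among the alternatives run, it passed only without that sample (-0.70, adjusted p = 0.024). Part of the gene is overlapped on the other strand by Airn, the noncoding RNA that silences the paternal allele. Airn was read at 8.02 ± 1.38 and 5.90 ± 2.25 CPM (adjusted p = 0.44), and whether the counting used strand is not given.

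**Figure D2:**
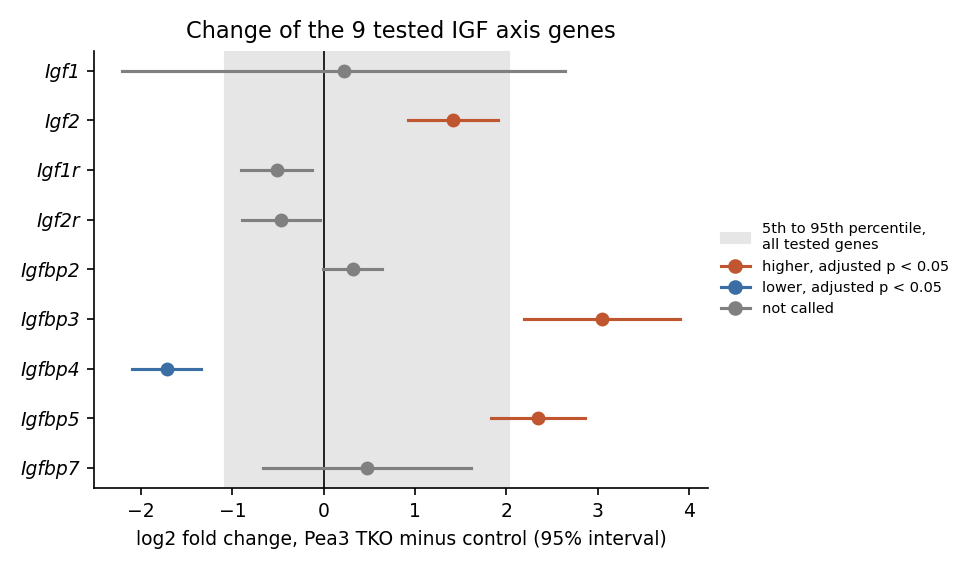
Log2 fold changes of the 9 tested genes, Pea3 TKO minus control, with 95% intervals from the edgeR fit. The grey band holds the 5th to 95th percentile of all tested genes, and Igfbp3 (3.05) and Igfbp5 (2.35) lie to its right and Igfbp4 (-1.72) to its left.

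Among the tested binding proteins the largest fold change was that of Igfbp3, the main carrier of IGFs in adult serum. Igfbp3 lies on chromosome 11 from 7206086 to 7213923. Its expression was 4.45, 3.36 and 3.44 CPM in control and 16.4, 47.1 and 29.9 CPM in Pea3 TKO. All Pea3 TKO samples were above all controls, although they differed among themselves by more than the controls did. The fold change was 8.27 (log2 3.05, standard error 0.38, adjusted p = 6.7e-04).

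Igfbp5, on chromosome 1 from 72857932 to 72874884, encodes a binding protein that attaches to extracellular matrix. It rose from 248, 205 and 125 CPM in control to 1145, 914 and 887 CPM in Pea3 TKO, a fold change of 5.09 (log2 2.35, standard error 0.23, adjusted p = 2.1e-04). The lowest Pea3 TKO sample was far above the highest control. Its neighbour Igfbp2, another abundant fetal binding protein gene, begins at 72824503 and ends 5.5 kb from the end of Igfbp5, tail to tail. Igfbp2 was read at 469, 482 and 406 CPM in control and 657, 572 and 463 CPM in Pea3 TKO. These ranges overlap, and Igfbp2 was not called (log2 0.32, standard error 0.15, adjusted p = 0.14, with a 95% interval from -0.01 to 0.64). Without Pea3 TKO replicate 3 Igfbp2 was called at 0.44 (adjusted p = 0.040). The ratio of Igfbp5 to Igfbp2 CPM within a library was 0.31 to 0.53 in control and 1.60 to 1.92 in Pea3 TKO, without overlap.

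Igfbp4 was the member that fell. This gene, on chromosome 11 from 99041244 to 99054392, encodes a binding protein known mainly as an inhibitor of IGF action. Its expression was 230, 268 and 304 CPM in control and 69.5, 101 and 73.6 CPM in Pea3 TKO. Each Pea3 TKO sample was below each control, and expression was 3.29-fold lower in Pea3 TKO (log2 -1.72, standard error 0.17, adjusted p = 2.1e-04). Because Igfbp5 and Igfbp4 moved in opposite directions, the ratio of their CPM within a library, which does not depend on normalization, went from 0.41 to 1.08 in control to 9.05 to 16.5 in Pea3 TKO.

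Igfbp7 and Igfbp6 were read at low levels. Igfbp7, a member that binds IGFs weakly, had 3.38, 8.04 and 2.08 CPM in control and 5.65, 7.27 and 5.87 CPM in Pea3 TKO. The control samples spanned all of the Pea3 TKO samples (log2 fold change 0.48, 95% interval -0.67 to 1.62, adjusted p = 0.54). Igfbp6, a binding protein that prefers Igf2, did not pass the low-count filter. It had 0, 2 and 0 counts in control and 7, 13 and 5 counts in Pea3 TKO. Each Pea3 TKO sample thus exceeded each control, and the ratio of the summed counts was 13.1 with an exact 95% interval from 3.25 to 114 that covers counting error only. When every gene with a count was tested, Igfbp6 had an adjusted p of 0.19, and DESeq2 gave 0.17.

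The stretches of 250 bases before the RefSeq transcription starts of these genes (GRCm38.p6) were read for the ETS core GGAA, to which Pea3 factors bind, on both strands. All 10 genes matched, with 14 starts in all, 4 of them for Igf2 and 2 for Igfbp2. The core was present in 14 of the 14 windows, as it was in 93.4% of the 32851 windows of all genes. The longer forms CCGGAAGT and CAGGAAGT, which contain the core, were found in 1 member window, that of Igf2r, against 5.49% of all windows. The windows of the called binding proteins and of Igf2r are shown because expression of the former changed and the latter holds the longer form. Capitals mark GGAA or its reverse complement and, in Igf2r, the whole longer form on the reverse strand, which starts 119 bases before the transcription start. A match describes letters in the window and is not a measured binding site.
Igfbp3, chr11:7213924-7214173, minus strand: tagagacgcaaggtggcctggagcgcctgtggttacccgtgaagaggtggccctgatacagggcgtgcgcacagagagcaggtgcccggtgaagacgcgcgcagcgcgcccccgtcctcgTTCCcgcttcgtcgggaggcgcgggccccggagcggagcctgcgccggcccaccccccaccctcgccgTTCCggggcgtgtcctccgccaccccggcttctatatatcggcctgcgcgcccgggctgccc
Igfbp4, chr11:99040994-99041243, plus strand: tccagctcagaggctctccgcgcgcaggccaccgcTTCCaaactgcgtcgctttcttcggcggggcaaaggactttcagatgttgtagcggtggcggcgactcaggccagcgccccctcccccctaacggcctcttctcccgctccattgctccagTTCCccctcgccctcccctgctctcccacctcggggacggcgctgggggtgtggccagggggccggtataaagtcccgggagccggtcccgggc
Igfbp5, chr1:72874866-72875115, minus strand: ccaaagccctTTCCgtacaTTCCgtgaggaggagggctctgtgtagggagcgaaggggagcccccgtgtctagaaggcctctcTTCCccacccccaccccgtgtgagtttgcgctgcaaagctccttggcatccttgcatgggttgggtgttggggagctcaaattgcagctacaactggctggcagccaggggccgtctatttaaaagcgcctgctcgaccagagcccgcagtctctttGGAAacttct
Igf2r, chr17:12769707-12769956, minus strand: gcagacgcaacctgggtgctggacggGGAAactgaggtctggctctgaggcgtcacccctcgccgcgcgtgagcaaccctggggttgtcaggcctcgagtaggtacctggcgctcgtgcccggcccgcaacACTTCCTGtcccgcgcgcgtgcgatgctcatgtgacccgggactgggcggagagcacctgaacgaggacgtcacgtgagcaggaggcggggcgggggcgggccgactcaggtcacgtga

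To compare levels between genes, CPM was divided by the exonic length of each gene in GENCODE M21. In control samples the most abundant transcript per kb was Igfbp2 at 245 ± 22.1 CPM per kb (SD, n = 3). Igf2 (63.6 ± 9.66) and Igfbp4 (60.6 ± 8.44) came next and did not differ beyond their spread. They were followed by Igfbp5 at 32.1 ± 10.4 and Igf2r at 19.3 ± 2.60 CPM per kb, whose ranges also overlapped. Igfbp7 (3.72 ± 2.59), Igf1r (2.31 ± 0.29) and Igfbp3 (1.199 ± 0.19) were lower, and Igf1 and Igfbp6 were at most 0.15 CPM per kb in any control.

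In Pea3 TKO samples Igfbp2 was again the highest at 305 ± 52.7 CPM per kb. Igfbp5 joined Igf2 at the next level, with 164 ± 23.6 and 169 ± 57.6 CPM per kb and overlapping ranges. Igfbp4 dropped behind these at 18.4 ± 3.88 CPM per kb and overlapped with Igf2r at 13.97 ± 3.79. Igfbp3 reached 9.95 ± 4.91 CPM per kb and lay above Igf1r at 1.61 ± 0.19, the reverse of their order in controls.

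**Figure D3:**
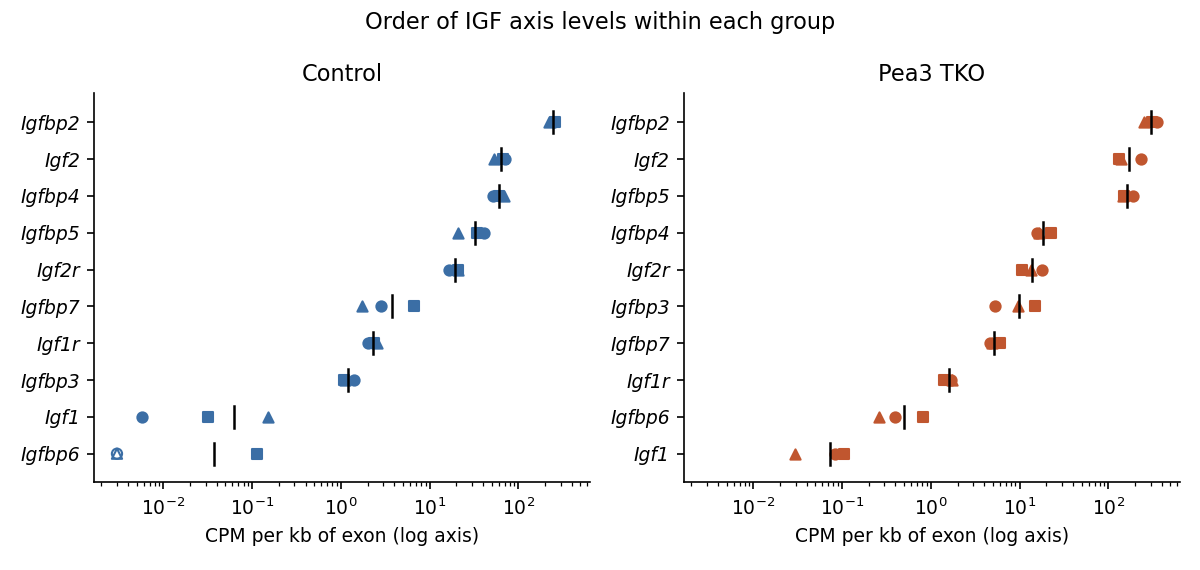
Level of each gene per kb of exon on a log axis, ordered within control and within Pea3 TKO, with 1 symbol per replicate and a black bar at the mean. Igfbp2 leads in both groups, and Igfbp5 stands next to Igf2 in Pea3 TKO.

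IGFs and their binding proteins are also expressed by mesenchyme, the tissue around the bud, and the marker genes of other cell types were therefore read beside these results. Of 14 mesenchyme markers 12 were tested, and 2, Dcn and Lum, were called higher, a share near the 13.6% of all tested genes. The summed level of the list was 240 to 321 CPM in control and 691, 866 and 274 CPM in Pea3 TKO, with Foxc1 alone at 210 ± 23.6 CPM in control. Col3a1, a fibrillar collagen gene, had 2.99, 6.42 and 53.3 CPM in control and 119, 213 and 1.996 CPM in Pea3 TKO. Pea3 TKO replicate 3 was therefore below all controls for this gene. Dcn was likewise high in Pea3 TKO replicates 1 and 2 (69.6 and 73.5 CPM) and low in replicate 3 (2.41 CPM), within the control range. Of the 12 tested markers 11 had a positive log2 fold change. The exception, Pdgfrb, was at 3.49 to 3.83 CPM in control and 1.65, 4.96 and 2.23 CPM in Pea3 TKO. Fgf10, which was not tested, had 4, 1 and 17 counts in control and 0 in each Pea3 TKO sample. In Pea3 TKO replicate 1, Postn (17.1 CPM) and Prrx1 (3.49 CPM) lay within the control range.

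In Pea3 TKO replicate 3 the summed mesenchyme list (274 CPM) lay within the control range, but most of this sum was Foxc1. Foxc1, at 259 CPM, was above every control (184 to 229 CPM), and each other marker of the list lay within or below the control range. In the same sample Igf2 was at 800, Igfbp3 at 29.9 and Igfbp5 at 887 CPM, above each control, and Igfbp4 was at 73.6 CPM, below each control. Set alone against the 3 controls, in a comparison chosen after seeing the data, this sample gave log2 differences of 3.00 for Igfbp3, 2.22 for Igfbp5 and -1.85 for Igfbp4. With 1 Pea3 TKO sample, the spread comes from the controls only, and these differences have no replicate check. The part of mesenchyme transcripts and of Y-linked expression in the IGF results was not tested. Endothelial markers summed to at most 7.76 CPM in any sample, and Emcn and Tie1 had 0 counts in all samples. White blood cell markers ranged from 0.19 to 25.0 CPM in control and from 1.64 to 24.3 CPM in Pea3 TKO. Red blood cell markers ranged from 31.3 to 101 and from 47.4 to 221 CPM, with Hba-a1 and Hba-a2 at 0 counts in all samples, and skeletal muscle markers summed to at most 4.36 CPM. Nerve and Schwann cell markers were at 65.5 to 87.5 CPM and 58.7 to 70.2 CPM. Among the tested markers of the endothelial, white blood cell, red blood cell and nerve lists, the lowest adjusted p in edgeR was 0.057, for Elavl4 (log2 -3.52), and no skeletal muscle marker passed the low-count filter.

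The other lists differed between the groups in their summed level. Pericyte markers, dominated by Mcam, were at 199 to 215 CPM in control and 106 to 135 CPM in Pea3 TKO. This sum followed Mcam, while 3 of the 4 tested pericyte markers had a positive log2 fold change. Among these, Rgs5 rose from 0.18 ± 0.11 to 6.47 ± 1.17 CPM. Epidermis markers summed to 1079 to 2244 CPM in control and 6262 to 8474 CPM in Pea3 TKO. Of these 9 markers 8 were called higher, against 13.6% of all tested genes, and Trp63 was not called. General epithelial markers summed to 2787 to 3522 CPM in control and 5104 to 5984 CPM in Pea3 TKO. Lacrimal bud markers summed to 4545 to 4947 CPM in control and 1405 to 1459 CPM in Pea3 TKO. Of these 10 markers 8 were called lower and 2 higher, against 11.3% and 13.6% of all tested genes. The summed levels of these lists did not overlap between the groups, and their part in the IGF results was not tested.

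**Figure D4:**
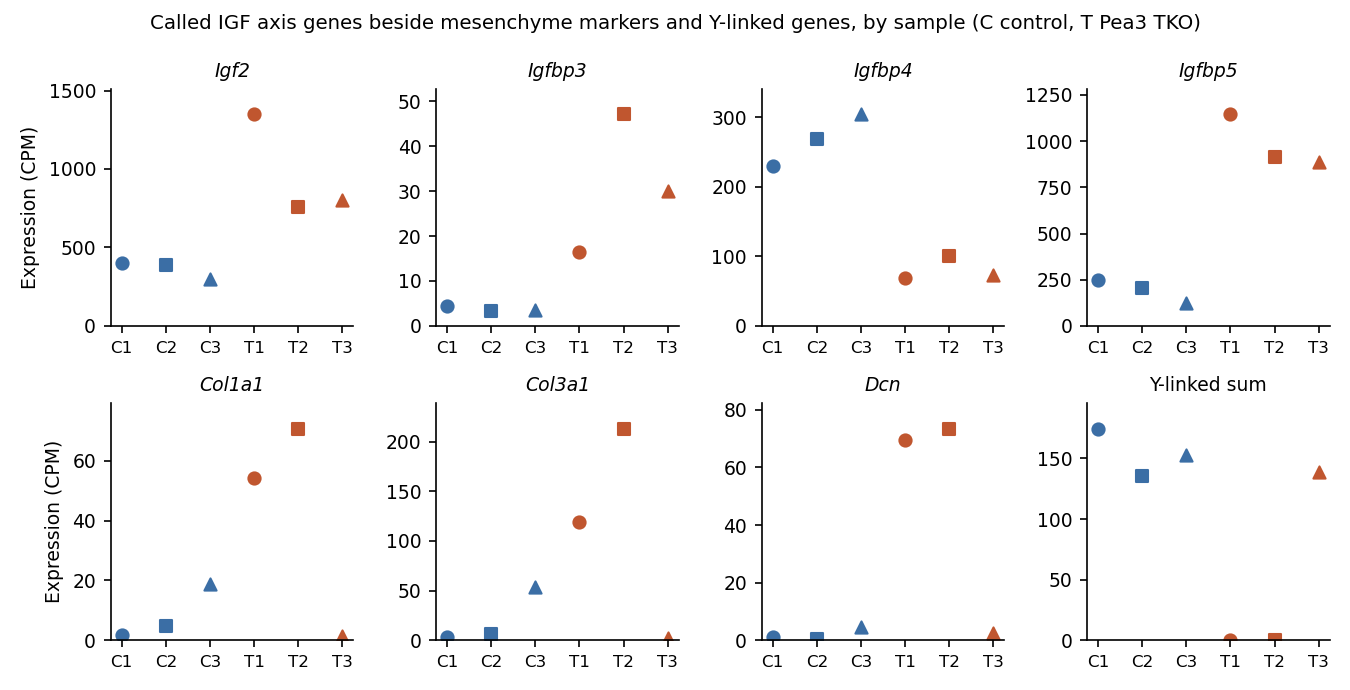
Expression in CPM by sample (C1 to C3 control, T1 to T3 Pea3 TKO) of the called IGF axis genes, of the mesenchyme markers Col1a1, Col3a1 and Dcn, and of the summed Y-linked genes. T3 lies with the other Pea3 TKO samples in the top row, and in the bottom row it lies within the control range for Dcn and the Y-linked sum and below all controls for Col1a1 and Col3a1.

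The enzymes that cut binding proteins were listed separately. Of 9 such proteases and inhibitors 6 were tested, and edgeR called 3 higher, against 13.6% of all tested genes. Htra1, a secreted serine protease, had 14.6, 5.54 and 8.45 CPM in control and 96.9, 115 and 48.7 CPM in Pea3 TKO (log2 fold change 3.18, standard error 0.39, adjusted p = 6.4e-04). Its relative Htra3 rose from 1.53 ± 0.87 to 20.5 ± 4.33 CPM (log2 3.73, standard error 0.45, adjusted p = 5.8e-04). Adamts1, a secreted metalloprotease, rose from 47.7 ± 2.74 to 85.3 ± 7.48 CPM (log2 0.84, adjusted p = 0.0020), a call lost with the Y-linked covariate (0.73, adjusted p = 0.056). Bmp1, another secreted metalloprotease, was not called by edgeR (-0.35, adjusted p = 0.063) and was called lower by DESeq2 (adjusted p = 0.049). Pappa, which cleaves Igfbp4, had 0 counts in all 6 samples, a level of at most 0.21 CPM given the floor of 3 counts. Pappa2 had 0 counts in the controls and 21, 0 and 0 counts in Pea3 TKO. The inhibitors of these pappalysins, Stc1 (log2 0.80, adjusted p = 0.11) and Stc2 (-0.97, adjusted p = 0.15), were not called.

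The insulin receptor gene Insr rose from 19.2, 15.9 and 20.2 CPM to 34.7, 23.8 and 37.0 CPM (log2 0.79, standard error 0.22, adjusted p = 0.027), and the groups did not overlap. Of the 7 genes on the list of insulin and further IGF binding genes, Insr was the only member that was tested. Ins1, Ins2, Igfbp1 and Igfbpl1 had 0 counts in all samples. The call of Insr was lost with the Y-linked covariate and without control replicate 2, control replicate 3, Pea3 TKO replicate 1 or Pea3 TKO replicate 3, when no member of this list was called.

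Downstream of the receptor, 26 of 27 adaptor and PI3K-AKT cascade genes were tested, of which edgeR called 4 higher and 3 lower. This share lies close to the 25.0% called among all tested genes. The median log2 fold change was 0.08. Irs1, an adaptor that couples the receptor to PI3K, rose from 23.3, 19.1 and 27.5 CPM to 60.8, 60.4 and 52.4 CPM (log2 1.31, standard error 0.17, adjusted p = 8.6e-04). Irs2 (log2 0.71, adjusted p = 0.026) and the PI3K regulatory subunits Pik3r1 (0.75, adjusted p = 0.036) and Pik3r3 (1.01, adjusted p = 0.0030) were also higher. Grb10, an adaptor that inhibits signaling from Igf1r and Insr, fell from 589, 609 and 681 CPM to 370, 436 and 437 CPM (log2 -0.60, standard error 0.12, adjusted p = 0.0066). Rps6kb1 (-0.42, adjusted p = 0.030) and Eif4ebp1 (-0.43, adjusted p = 0.032), which encode targets of mTOR, were lower as well. The catalytic subunit gene Pik3ca (-0.03, adjusted p = 0.92) and Akt2 (0.18, adjusted p = 0.33) were not called. Akt1, at 701.5 ± 27.7 CPM in control and 559.9 ± 31.6 CPM in Pea3 TKO without overlap, lay at the threshold. It was not called by edgeR (-0.33, adjusted p = 0.05). DESeq2 called it lower (adjusted p = 0.0085), as did edgeR with a filter of at least 1 CPM in 3 samples (0.049). Calls in this list numbered 2 with the Y-linked covariate and 3 without control replicate 2, control replicate 3 or Pea3 TKO replicate 1. Calls over all tested genes fell from 3268 to 786, 1963, 1948 and 2267 in these fits, in the same order. Irs2, Pik3r1, Rps6kb1 and Eif4ebp1 lost their calls in each of them, and Grb10 with the covariate. Without Pea3 TKO replicate 2, Pik3r1, Rps6kb1 and Eif4ebp1 were also lost. Rps6kb1 was lost without control replicate 1 as well, and Irs2 without Pea3 TKO replicate 3.

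Imprinted growth genes and the Igf2 mRNA binding proteins formed the last list, in which 16 of 17 symbols were found and tested. The symbol not found, Zac1, is another name of Plagl1. With 4 of the 16 genes called in the edgeR test, the list had the same share of calls in either direction as all tested genes (25.0%). All 4 were higher, a direction in which 13.6% of all tested genes were called, against 11.3% in the lower direction. In addition to H19, Plagl1 (log2 0.85, adjusted p = 0.0058), Mest (0.72, adjusted p = 0.0044) and Peg3 (0.52, adjusted p = 0.017) rose. Cdkn1c, an inhibitor of cyclin-dependent kinases, was at 362 ± 58.7 and 511 ± 149 CPM (adjusted p = 0.12). The Igf2 mRNA binding proteins were not called by edgeR, with log2 fold changes of -0.62 for Igf2bp1, -0.35 for Igf2bp2 and 0.22 for Igf2bp3 (adjusted p = 0.083, 0.051 and 0.18). DESeq2 called Igf2bp1 and Igf2bp2 lower (adjusted p = 0.035 and 0.024). Igf2bp1 was also called lower by edgeR with the replicate block (adjusted p = 0.048), without control replicate 1 (0.0080) and without Pea3 TKO replicate 3 (0.043). With the Y-linked covariate no gene of this list was called, while 786 of all 13087 tested genes were.

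**Figure D5:**
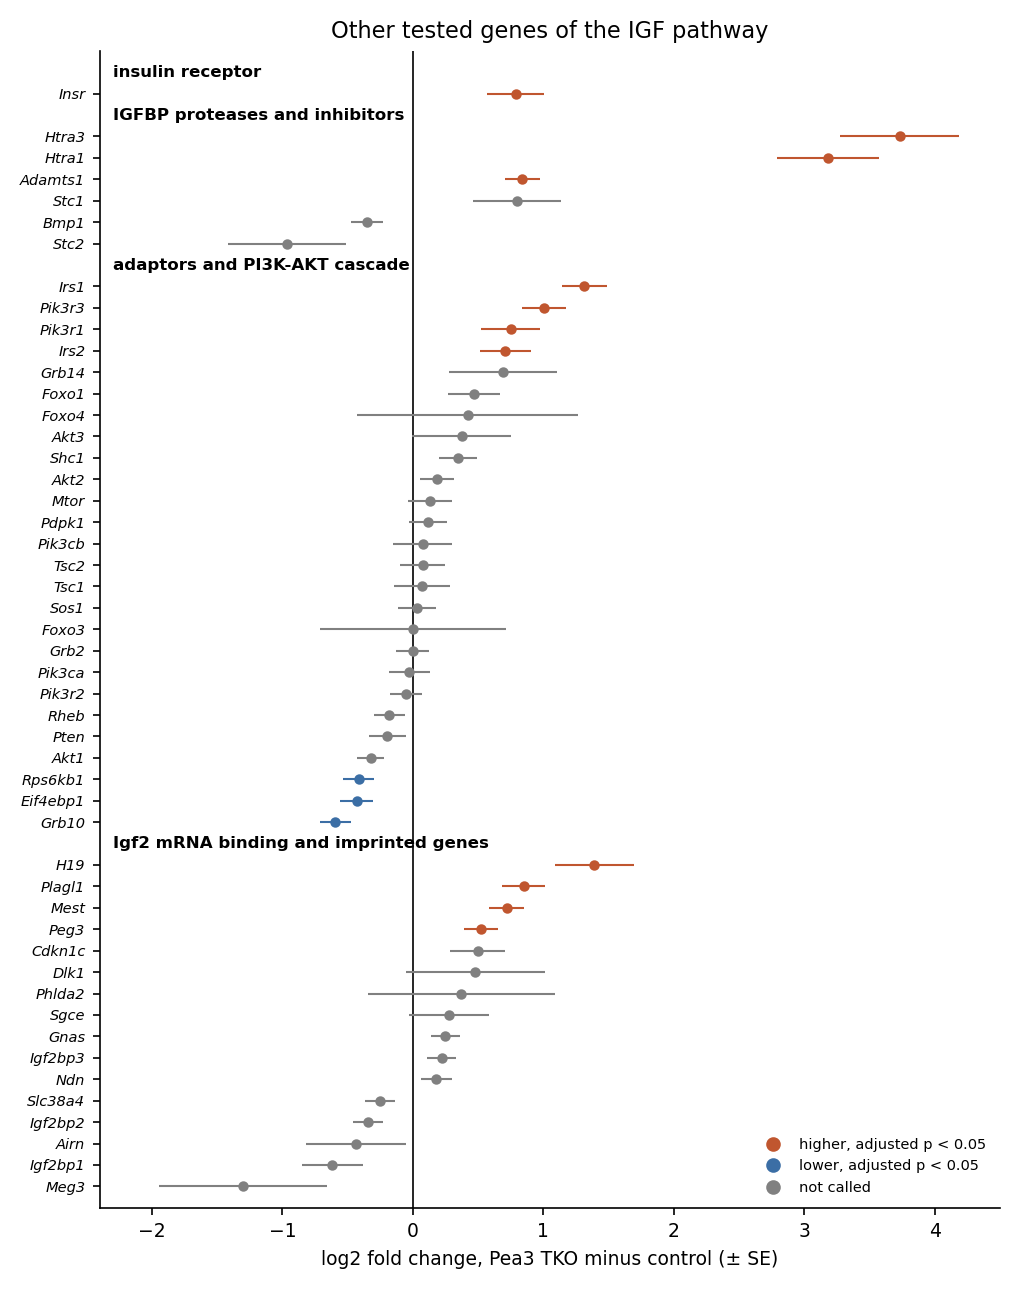
Log2 fold changes with standard errors for all tested genes of the related lists, Pea3 TKO minus control, coloured by call. Htra1 (3.18) and Htra3 (3.73) lie farthest to the right, and the downstream cascade is spread around 0.

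For each called member the genes with the most similar profile over the 6 samples were taken by Pearson r of log2 CPM, as a description in which the difference between the groups weighs heavily. Igf2 was closest to Krt10 and Dok4 (r = 0.9996 and 0.9974), and Igfbp3 to Zfp712 and Pttg1ip (0.9994 and 0.9958). Igfbp4 was closest to St6galnac4 and Nfyc (0.9995 and 0.9977). The nearest genes to Igfbp5 were Cdhr1 and the protease gene Htra3 (0.9996 and 0.9993).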

How the data were processed

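E14.5 lacrimal gland epithelium was measured by RNA-seq in 3 control and 3 Pea3 TKO samples. The authors deposited the counts of reads for each gene symbol as whole numbers that had not been normalized. The submitters' processing notes name bcl2fastq 2.17, STAR 2.5.2b, featureCounts 1.5.0-p3, DESeq and the build mm10 (the same assembly as GRCm38). The annotation and strand setting are not given in the sources used here. The labels name both an RNA amplification kit and poly-A selection. No molecular identifiers are mentioned, so counting intervals cover counting error only.

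From these counts, low genes were removed by filterByExpr at its default settings (minimum count 10, minimum total 15). TMM factors and the quasi-likelihood test of edgeR 4.0.16 under R 4.3.3 were then used to compare the groups without covariates, and p-values were adjusted over 13087 genes by Benjamini-Hochberg. Standard errors were obtained by dividing the size of each log2 fold change by the square root of F, and 95% intervals use the degrees of freedom of that fit. The script was tested on simulated data before use. Gene positions and lengths are those of GENCODE M21, and promoter windows those of RefSeq. Replicates differed by more than sampling noise (chi-square per degree of freedom at least 16). Genes named are all members, the called genes of the related lists with some that were not called, the targeted genes and the 2 genes most like each called member. Single marker genes were named after their values were seen. The members and lists were chosen with earlier results of these data known. Alternatives were other size factors, DESeq2 1.42.0, other low-count filters, a threshold of 0.01, the replicate number as a block, a covariate for Y-linked expression (Ddx3y, Eif2s3y, Kdm5d and Uty) and leaving out each sample. The fit limited to samples that have Y-linked counts, meaning a summed level of at least 10 CPM for these genes, was chosen after seeing the data.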

Additional observations from a re-analysis of the deposited data

How the results depend on the processing

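The 4 called members Igf2, Igfbp3, Igfbp4 and Igfbp5 kept their direction under every alternative run, and the loss of the Igf2 call with the Y-linked covariate was the only call lost among them. Between 3 and 5 members were called across the alternatives. With any 1 sample left out, log2 fold changes ranged from 1.10 to 1.56 for Igf2, 2.63 to 3.35 for Igfbp3, -1.90 to -1.62 for Igfbp4 and 2.11 to 2.57 for Igfbp5. Igf1 changed sign, to -1.10 with the Y-linked covariate, -1.05 with only the samples that have Y-linked counts, and to between -0.33 and 1.94 with any 1 sample left out. Over all tested genes, 3268 calls became 786 with the Y-linked covariate, 597 with only the samples that have Y-linked counts (3 controls and 1 Pea3 TKO sample assumed to vary like them, chosen after seeing the data), 1426 at an adjusted p threshold of 0.01, and 1948 to 3344 with any 1 sample left out (1948 without control replicate 3, 1963 without control replicate 2 and 2072 without Pea3 TKO replicate 2). The fit with the covariate, too, rests mainly on Pea3 TKO replicate 3 against the controls. Apart from the smaller number of samples and the stricter threshold, the cause was not tested. At the threshold of 0.01 the cascade list had 3 calls and the Insr list 0, and with only the samples that have Y-linked counts the cascade list had 1 call and the Insr and imprinted lists 0. A replicate block in the fit gave 3191 called genes and 4 called members. No pairing of the samples by number was seen, although 3 samples per group are too few to decide it. Deviations from the group means correlated at 0.13, -0.04 and -0.001 for the 3 numbers, and 2 of 6 samples correlated best with their own number. Depth limits Igf1 and Igfbp6, whose counts were near or below the floor.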
